A study of Homo sapiens with 12 samples.

Results

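The alpha-crystallins and the other small heat shock proteins were followed in HLE-B3 cells, human lens epithelial cells that were immortalized for culture, across 4 groups of 3 biological replicates. The 9 genes (CRYAA, CRYAB, HSPB1, HSPB2, HSPB3, HSPB6, HSPB7, HSPB8 and HSPB11) were chosen by name, as 9 of the 58735 genes in the deposited tables. WT and Atg7KO cells were either left untreated (labelled 0 h) or exposed to 200 μM H2O2 for 12 h. All cells grew in the same medium with serum, and how long the untreated cells were kept is not given beyond that label, so the effect of H2O2 and that of time in culture cannot be told apart. The Atg7KO cells were made with CRISPR/Cas9 against ATG7, an enzyme needed to build autophagosomes, followed by puromycin selection and picking of single clones. The labels do not say which clone or clones were sequenced, so a difference between Atg7KO and WT cells and a difference between a clone and its parent line cannot be told apart.

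Small heat shock proteins are chaperones that hold unfolding proteins in solution without using ATP, until other chaperones refold them or they are degraded. The lens is where they were first known: alpha A-crystallin and alpha B-crystallin, encoded by CRYAA and CRYAB, are major proteins of its fibre cells, which keep their proteins for life, and CRYAB is also made in the epithelium. Heat shock factor 1, encoded by HSF1, switches on chaperone genes when proteins unfold, and HSPB1 and CRYAB are among the small heat shock protein genes it is known to bind.

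The targeted gene was examined first. Untreated, ATG7 had 2.55 ± 0.313 FPKM in WT and 3.55 ± 0.205 FPKM in Atg7KO cells (mean ± SD of 3 libraries), and 1.96 ± 0.0411 and 2.19 ± 0.137 FPKM after H2O2. FPKM is the number of fragments scaled to gene length and library size. ATG7 mRNA was not lower in the libraries labelled Atg7KO, so these counts cannot check the label. Between 15602183 and 17659496 reads were counted per library. Within 3 of the groups, each library correlated with its replicates at a mean Pearson r over genes between 0.991 and 0.992, and between 0.974 and 0.983 in untreated Atg7KO cells, where replicate 1 had the lowest value. This library also had the highest level of HSPB1 and of HSPB11 of all 12 libraries, and the values of these genes that rest on it are given with and without it. Of the lens epithelium markers, GJA1 (group means between 23.9 and 50.5 FPKM), SIX3 (1.98 to 3.06 FPKM) and PAX6 (0.560 to 1.27 FPKM) were present, FOXE3, PITX3 and CDH1 were near 0, and SOX1 was listed at 0 in every library. Of 6 fibroblast markers, the collagen gene COL1A1 had group means between 243 and 626 FPKM, COL1A2 and PDGFRB means of 3.83 and 3.63 FPKM over the 12 libraries, and COL3A1 and DCN lay near 0. LUM differed between the lines, at 0.168 and 0.129 FPKM in untreated and treated WT and 9.52 and 3.93 FPKM in Atg7KO cells.

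A stretch of the coding sequences of CRYAB and HSPB1 is shown first, since these are the members whose responses to H2O2 are described most fully. It was read from GENCODE release 29 on GRCh38 (transcripts ENST00000227251.7 and ENST00000248553.6), 5′ to 3′, bases 234 to 413 of CRYAB and 294 to 473 of HSPB1 counted from the start codon. Capitals mark runs of at least 8 identical bases where the 2 coding sequences were aligned end to end.
CRYAB: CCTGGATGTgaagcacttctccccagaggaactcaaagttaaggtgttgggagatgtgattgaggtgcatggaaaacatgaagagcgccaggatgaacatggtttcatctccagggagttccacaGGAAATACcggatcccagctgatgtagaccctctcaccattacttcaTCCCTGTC
HSPB1: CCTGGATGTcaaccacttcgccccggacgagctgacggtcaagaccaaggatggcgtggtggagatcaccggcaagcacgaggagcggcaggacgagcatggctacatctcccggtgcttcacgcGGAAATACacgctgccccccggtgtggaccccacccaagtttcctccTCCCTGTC
In this stretch 118 of 180 aligned bases were identical (65.6%). Over the whole coding sequences, 528 bases of CRYAB and 618 bases of HSPB1, 323 of 527 aligned bases were identical (61.3%), and the longest of the 4 identical runs was 11 bases. Of these runs 3 lie in the stretch shown, and no stretch of 50 bases was shared between CRYAB and HSPB1 transcripts.

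Upstream sequences of 3 members are shown because they hold a pair of units of the motif that heat shock factors bind. The motif was searched as its pairs of inverted units, GAANNTTC and TTCNNGAA, each of which is its own reverse complement and so covers both strands. Sequences are the 250 bases before the transcription start in RefSeq (GRCh38.p14), written 5′ to 3′ on the strand of the gene, with the motif in capitals. The windows are chr7:76302423-76302672 on the plus strand for HSPB1, chr19:35757030-35757279 on the minus strand for HSPB6 and chr12:119178681-119178930 on the plus strand for HSPB8.
HSPB1: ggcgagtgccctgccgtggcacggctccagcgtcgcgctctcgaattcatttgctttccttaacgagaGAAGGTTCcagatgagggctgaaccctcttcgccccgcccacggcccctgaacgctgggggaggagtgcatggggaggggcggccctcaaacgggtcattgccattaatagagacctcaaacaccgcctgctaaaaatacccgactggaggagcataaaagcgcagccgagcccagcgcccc
HSPB6: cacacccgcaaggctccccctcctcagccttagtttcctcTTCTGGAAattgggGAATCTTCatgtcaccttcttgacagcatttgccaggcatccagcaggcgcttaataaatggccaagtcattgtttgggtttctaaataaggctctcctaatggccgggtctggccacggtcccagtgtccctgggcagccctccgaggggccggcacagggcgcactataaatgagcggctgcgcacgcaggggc
HSPB8: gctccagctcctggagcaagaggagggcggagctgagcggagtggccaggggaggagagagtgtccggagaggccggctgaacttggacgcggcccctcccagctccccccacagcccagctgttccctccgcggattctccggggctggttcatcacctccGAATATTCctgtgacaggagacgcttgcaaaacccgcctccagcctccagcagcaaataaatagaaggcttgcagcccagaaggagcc
The first base of the motif lies at -182 in HSPB1, at -210 and -196 in HSPB6 and at -88 in HSPB8, counted from the start site. HSPB3 holds TTCNNGAA at -242. Thus 4 of the 7 members with a window had a motif, while 11.6% of 35116 RefSeq windows of the same length had one (5.78% GAANNTTC and 6.62% TTCNNGAA). The windows of CRYAA, HSPB7 and HSPB11 (IFT25 in RefSeq) held none, which says only that these letters are not in these windows. CRYAA and HSPB11 had more than 1 window each, so a share of members is not the same measure as a share of windows. Whether the members exceed the background was not tested. The longer motif, with a further inverted unit, was in no window of a member. Its forms were in 0.225% and 0.248% of the RefSeq windows, so its absence from so few windows says little. Of the 4 members with a motif, HSPB3 and HSPB8 had too few reads for a test of their response. The windows of HSPB1 and HSPB3 lie partly, and those of HSPB6 and HSPB8 wholly, inside the gene span of the deposited table, since the RefSeq start lies further downstream. The table of windows used here has no entry for CRYAB or HSPB2, whose upstream sequences were not analysed here.

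The 9 members fell into 3 tiers of abundance. HSPB1, a stress-inducible chaperone of actin filaments, was the most abundant in every group and accounted for between 73.8 and 85.0% of the summed FPKM of the 9 genes. HSPB11, a subunit of the intraflagellar transport machinery of cilia that is grouped with this family by name, came next with between 12.6 and 24.1%. The lowest HSPB1 library (47.5 FPKM) lay above the highest HSPB11 library (22.6 FPKM). CRYAB and HSPB6, a chaperone best known from muscle, formed the second tier with group means of at most 1.65 and 0.966 FPKM. The third tier consisted of CRYAA, HSPB2, HSPB3, HSPB7 and HSPB8, whose group means all lay under 0.1 FPKM and whose order did not differ beyond the spread of their libraries.

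On the FPKM scale CRYAB and HSPB6 changed places with treatment. In untreated WT cells HSPB6 (0.262 to 0.442 FPKM) lay above CRYAB (0.132 to 0.197 FPKM), and in untreated Atg7KO cells HSPB6 (0.228 to 0.565 FPKM) again lay above CRYAB (0 to 0.0356 FPKM). After H2O2 the order was turned: CRYAB had 1.43 to 1.98 FPKM against 0.676 to 1.16 FPKM of HSPB6 in WT cells, and 0.866 to 1.003 against 0.335 to 0.407 FPKM in Atg7KO cells. In none of the 4 groups did the FPKM values of these genes overlap. In untreated WT cells their reads did, at 7 to 11 for CRYAB and 8 to 14 for HSPB6. The order there therefore rests on the gene lengths used for FPKM, 3034 bases for CRYAB and 1721 for HSPB6. Alpha B-crystallin mRNA was thus the third of the family after H2O2 in both lines, on the FPKM scale. In untreated Atg7KO cells CRYAB and HSPB7 had 2 reads each, so their order there cannot be told.

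The 5 members of the third tier could not be tested. The plot of reads by library shows that CRYAA had 3 reads over all 12 libraries, HSPB2 12, HSPB3 1, HSPB7 12 and HSPB8 11, and none of them passed the filter on low counts in any comparison. CRYAA, the partner of CRYAB in the lens fibre, therefore had 0.0147 CPM (reads scaled to the summed library totals), with an exact upper 95% limit of 0.0428, and was not detectable at a useful level at this depth. HSPB3 and HSPB7, members known from heart and skeletal muscle, were as sparse. HSPB8, which works with BAG3 to pass proteins to autophagy, had 9 of its 11 reads in H2O2-treated WT cells, in counts of 7, 1 and 1, so that a single library carried most of them. Without the filter, the edgeR quasi-likelihood test, adjusted by Benjamini-Hochberg, gave HSPB8 a log2 fold change of 2.82 with H2O2 in WT cells (SE 1.43, adjusted p = 0.117). HSPB2 had 6 and 5 reads in H2O2-treated WT and Atg7KO cells, 1 in untreated WT cells and 0 in untreated Atg7KO cells, and its value without the filter in WT cells was 2.25 (SE 1.55, adjusted p = 0.281). The exact limits and intervals, here and below, cover counting error only. The SEs and the 95% intervals given with log2 fold changes were derived from the fold change and the test statistic of edgeR. At counts near 0, as for CRYAB in untreated Atg7KO cells, they can be narrower than the counting error.

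Some members share sequence or exons with other genes, and the strand and multiple-mapping settings of the counting are not given in the sources used here. CRYAA (chr21:43169008-43172805, plus strand) shares 84.1% of its 50-base stretches with its near-copy CRYAA2, which was listed at 0 in every library, so the low CRYAA value is uncertain. U2AF1 and U2AF1L5, another such pair on chromosome 21 that was picked after its values were seen, had between 125 and 586 and between 89 and 598 reads per library. CRYAB (chr11:111908565-111923722, minus strand) and HSPB2 (chr11:111912242-111914093, plus strand) overlap on opposite strands, and 20.6% of the exon bases of CRYAB and 59.7% of those of HSPB2 are shared. The few HSPB2 reads can therefore not be assigned with certainty to HSPB2. HSPB6 (chr19:35754569-35758079, minus strand) shares 38.2% of its exon bases with AC002398.2 on the other strand, which had 1 read in all. HSPB1 (chr7:76302544-76304295, plus strand) shares 5.84% of its 50-base stretches with 2 pseudogenes that had 2 and 8 reads. HSPB11 (chr1:53916574-53945929, minus strand) shared no exon bases with another gene. All coordinates are on GRCh38.

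In WT cells the 4 members that could be tested were all higher after H2O2. CRYAB was the most changed: its reads were 7, 11 and 10 in untreated cells and 102, 67 and 80 after H2O2. In FPKM these are 0.172 ± 0.0345 and 1.65 ± 0.292 (SD, n = 3), and every treated library lay far above every untreated one. This is a 9.45-fold higher level, or 3.24 ± 0.28 in log2 fold change (± SE, edgeR quasi-likelihood test, Benjamini-Hochberg adjusted p = 3.83e-14). The ratio of the summed reads, scaled to the library totals, was 9.22, with an exact 95% counting interval from 6.22 to 14.2.

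HSPB1 began from a much higher level and rose by less. Its levels were 68.1, 61.3 and 70.9 FPKM in untreated WT cells and 110, 102 and 98.8 FPKM after H2O2, without overlap. The log2 fold change was 0.63 (SE 0.05, adjusted p = 5.73e-15, edgeR), or 1.55-fold. In FPKM, however, HSPB1 gained more than any other member. HSPB6 rose as well, from 0.333, 0.442 and 0.262 FPKM to 1.16, 1.06 and 0.676 FPKM. These values rest on 8 to 14 and 20 to 34 reads per library, and the log2 fold change was 1.46 (SE 0.37, adjusted p = 0.000481, edgeR). HSPB11 went from 13.4, 12.2 and 14.1 FPKM to 15.3, 15.03 and 15.97 FPKM. Its groups did not overlap, but the change was small, with a log2 fold change of 0.215 (SE 0.06, adjusted p = 0.00281, edgeR). This call was lost without untreated replicate 1 (adjusted p = 0.0114), without untreated replicate 2 (0.0526) and without H2O2-treated replicate 3 (0.0155).

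Calling a gene at an adjusted p under 0.01, 4 of the 9 members were higher and 0 lower, and the other 5 had too few reads. Of all 15913 genes tested in WT cells 61.0% were called, 30.9% as higher and 30.1% as lower. CRYAB and HSPB6 passed the filter only with their treated libraries, where they are high. HSPB6 had 10, 14 and 8 reads in the untreated ones. The count over tested members was therefore bound to lean toward genes that rose. Under a stricter rule, with the thresholds of the study's methods, that also asks for a log2 fold change beyond 1 and a mean FPKM above 1 in at least 1 group, CRYAB alone was called, against 7.30% of genes called as higher. HSPB6 missed this rule on its mean of 0.966 FPKM in the higher group. In these bulk samples more RNA of a gene per cell and more of the cells that make it cannot be told apart.

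In Atg7KO cells only CRYAB passed the test after H2O2, and HSPB1 pointed the other way. CRYAB had 0, 0 and 2 reads in the untreated libraries and 45, 50 and 50 after H2O2, or 0.0119 ± 0.0206 and 0.940 ± 0.0690 FPKM (SD, n = 3). The edgeR log2 fold change was 5.98 (SE 0.58, adjusted p = 0.000335). Its size depends on 2 reads: the ratio of summed reads, scaled in the same way, was 72.3 with an exact 95% interval from 19.7 to 603, and the fit without untreated replicate 3, which leaves the untreated group at 0 reads, gave 8.60. CRYAB thus rose from a level near 0, and all treated libraries lay above all untreated ones.

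HSPB1 had 121, 68.5 and 65.0 FPKM in untreated Atg7KO cells and 47.5, 48.8 and 53.7 FPKM after H2O2. All 3 treated libraries lay under all 3 untreated ones, the opposite of the order in WT cells. The share of all genes without overlap between groups was not computed, here or in the other comparisons. The log2 fold change was -0.77 (SE 0.24, adjusted p = 0.0355, edgeR), which did not pass the threshold of 0.01. Without untreated replicate 1, the library at 121 FPKM, the log2 fold change was -0.43 and passed it (adjusted p = 8.36e-17), so the value shrank while its call was gained.

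HSPB6 had 0.458, 0.228 and 0.565 FPKM in untreated and 0.407, 0.354 and 0.335 FPKM in treated Atg7KO cells. These libraries overlapped, and the log2 fold change was -0.20 (95% interval from -1.13 to 0.74, adjusted p = 0.713, edgeR). Without untreated replicate 3 its sign turned, at 0.097. HSPB11 had 22.6, 14.7 and 14.3 FPKM before and 17.6, 15.97 and 15.6 FPKM after H2O2, with a log2 fold change of -0.07 (95% interval from -0.50 to 0.36, adjusted p = 0.773, edgeR). Its sign also turned, to 0.16 without untreated replicate 1 (adjusted p = 0.0150) and to 0.042 with a correction for gene length. Neither gene had a direction that could be called. Thus 1 of the 4 members tested passed, where 26.0% of 15475 genes did, 13.6% as higher. The member was CRYAB, which passed the filter on low counts through its treated libraries alone, so the count was bound to include it. Under the stricter rule 0 of 9 members were called by edgeR, against 11.2% of genes, since CRYAB had a mean of 0.940 FPKM. At an unadjusted p under 0.05 in the edgeR test CRYAB and HSPB1 passed. The share over all genes was not computed at that level, so this sets neither gene apart from other genes.

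Untreated Atg7KO and WT cells were compared next, for the level before H2O2. Of the 3 members tested 0 were called with edgeR, which called 7.70% of 15357 genes. DESeq2 also called 0 members, and 2511 of these genes. At an unadjusted p under 0.05 in the edgeR test, 0 members passed. The share over all genes was not computed at that level, so this does not compare the members with other genes. The log2 fold change of HSPB1 was 0.34 (95% interval from -0.20 to 0.89, adjusted p = 0.342, edgeR) and became 0.0068 without untreated Atg7KO replicate 1. The untreated levels of HSPB1 in the other Atg7KO replicates, 68.5 and 65.0 FPKM, lie within the WT range of 61.3 to 70.9 FPKM. HSPB11 was at 0.37 (-0.06 to 0.80, adjusted p = 0.203), with all Atg7KO libraries above all WT libraries, and fell to 0.135 (adjusted p = 0.0973, edgeR) without untreated Atg7KO replicate 1. HSPB6 was at 0.26 (-0.74 to 1.27, adjusted p = 0.697), turning to -0.029 without untreated Atg7KO replicate 3.

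CRYAB had too few reads for this comparison, but its counts did not overlap: 7, 11 and 10 reads in WT and 0, 0 and 2 in Atg7KO cells. The ratio of WT to Atg7KO summed reads, scaled to library totals, was 13.9, with an exact 95% counting interval from 3.51 to 121. Without the filter edgeR gave a log2 fold change of -3.56 (SE 0.92, adjusted p = 0.0174). The gene was called where all 12 libraries were fitted together and where untreated Atg7KO replicate 1 was left out. Among the 4 more abundant members CRYAB thus had the largest ratio between the untreated lines, at counts that leave its size uncertain.

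With H2O2, 3 of the 4 members tested were lower in Atg7KO than in WT cells. HSPB1 had 47.5, 48.8 and 53.7 FPKM in Atg7KO cells against 110, 102 and 98.8 FPKM in WT cells, a wide gap without overlap. The log2 fold change was -1.06 (SE 0.05, adjusted p = 2.34e-18, edgeR), a 2.08-fold lower level. CRYAB had 45, 50 and 50 reads against 102, 67 and 80, and its log2 fold change was -0.82 (SE 0.19, adjusted p = 0.000378, edgeR), 1.77-fold lower. HSPB6 had 12, 10 and 10 reads against 34, 28 and 20, again without overlap, and its log2 fold change was -1.40 (SE 0.35, adjusted p = 0.000854, edgeR). Without H2O2-treated WT replicate 1 the HSPB6 call was lost (adjusted p = 0.0107), and the CRYAB call was lost where all 12 libraries were fitted together (adjusted p = 0.0165). HSPB11 had 17.6, 15.97 and 15.6 FPKM against 15.3, 15.03 and 15.97 FPKM, which overlap, with a log2 fold change of 0.08 (95% interval from -0.04 to 0.20, adjusted p = 0.251).

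The background in this comparison was high, with 55.6% of 15909 genes called and 27.9% called as lower, so a call alone sets no member apart. HSPB6 passed the filter on low counts only with its WT libraries, where it is high, although every library here had at least 10 of its reads. Under the stricter rule HSPB1 was the only member called, where 7.46% of genes were called and 4.43% as lower. With the gene length correction its log2 fold change was -0.87, which falls short of this rule. This comparison shares its libraries with the comparisons of treated and untreated cells within each line, so the calls are not independent of each other.

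**Figure D1:**
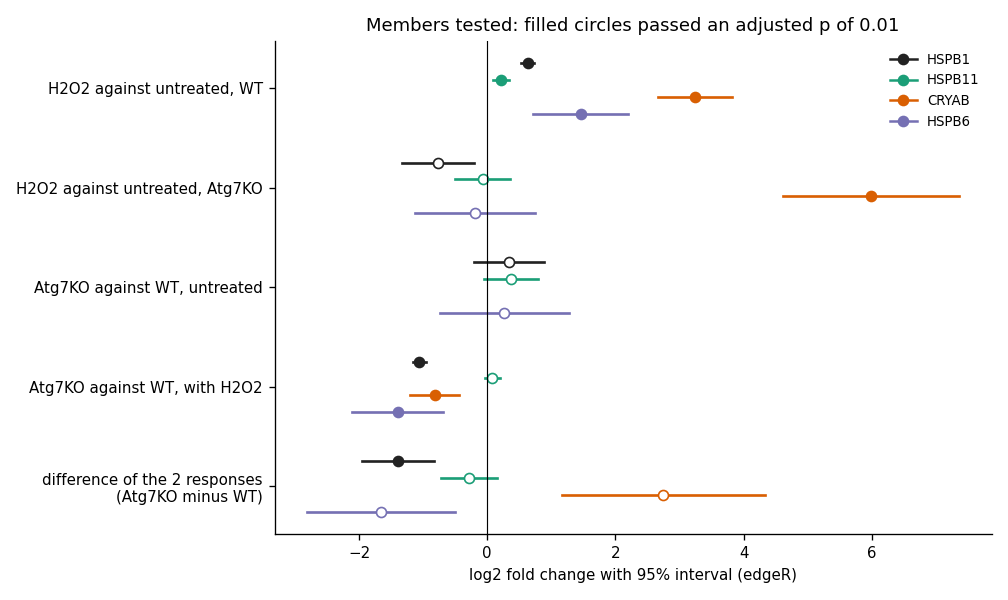
Log2 fold change (x axis) of the 4 tested members in the 5 comparisons (rows), with 95% intervals derived from the edgeR test statistic. These can be too narrow for CRYAB in Atg7KO cells, where untreated reads were near 0. Filled circles passed an adjusted p of 0.01, and CRYAB has no value in untreated cells. HSPB1 lies right of 0 for WT (0.63) and left of 0 for Atg7KO (-0.77), and CRYAB lies right of 0 for both (3.24 and 5.98).

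The difference between the responses of the lines was tested as an interaction over all 12 libraries. HSPB1 was the 1 member of 4 that passed, where 14.0% of 16856 genes passed and 7.01% with a lower response in Atg7KO cells. Its response in Atg7KO minus that in WT cells was -1.40 in log2 (SE 0.26, Benjamini-Hochberg adjusted p = 0.00212, edgeR). In all 12 fits that left out 1 library it stayed called, between -1.54 and -1.05, and the value nearest 0 was that without untreated Atg7KO replicate 1. With the gene length correction it was -1.03 (adjusted p = 0.00114, edgeR), the smallest in size of all settings. In the main fit it also met the stricter rule, as 5.17% of genes did.

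The other members did not pass this test. HSPB6 had a difference of -1.66 (95% interval from -2.81 to -0.50, adjusted p = 0.0334, edgeR) and HSPB11 one of -0.29 (-0.73 to 0.15, adjusted p = 0.304), which became -0.038 (adjusted p = 0.772) without untreated Atg7KO replicate 1. CRYAB had a difference of 2.74 (1.16 to 4.33, adjusted p = 0.0148), so its fold was larger in Atg7KO cells although its level after H2O2 was lower there. The sign of this difference depends on the scale: with limma on log2 of FPKM plus 1 it was -0.23 (adjusted p = 0.107). It was called without untreated Atg7KO replicate 3, at 5.38 (adjusted p = 0.00363), where the untreated Atg7KO group has 0 reads.

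The chaperone genes that HSF1 is known to switch on were set beside the members. Of 19 such genes 14 were higher and 0 lower after H2O2 in WT cells, with a median log2 fold change of 0.48 against -0.0053 over all genes, and 9 were higher and 0 lower in Atg7KO cells, with a median of 0.30 against -0.032. Over all genes tested 30.9% and 13.6% were called as higher. HSPA6, a strictly inducible HSP70 gene, went from 0.0314 to 96.8 FPKM in WT and from 0.200 to 2.58 FPKM in Atg7KO cells. HSPA1A, the main inducible HSP70 gene, had a log2 fold change of 3.94 (adjusted p = 0.000111, edgeR) in WT and 1.95 (adjusted p = 0.000201) in Atg7KO cells. These HSP70 genes are close paralogs whose reads may be shared. HSPA4L, an HSP110-type exchange factor, rose more in Atg7KO cells (3.06) than in WT cells (1.18), with a difference of 1.88 (adjusted p = 2.05e-06). HSPA8, the constitutive HSP70, was higher after H2O2 in Atg7KO cells (0.77, adjusted p = 0.00109) and had a value of -0.10 in WT cells (adjusted p = 0.262). HSP90AB1, the most abundant of the list, was higher in WT cells (0.48, adjusted p = 8.51e-16) and did not pass in Atg7KO cells (0.25, adjusted p = 0.151).

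**Figure D2:**
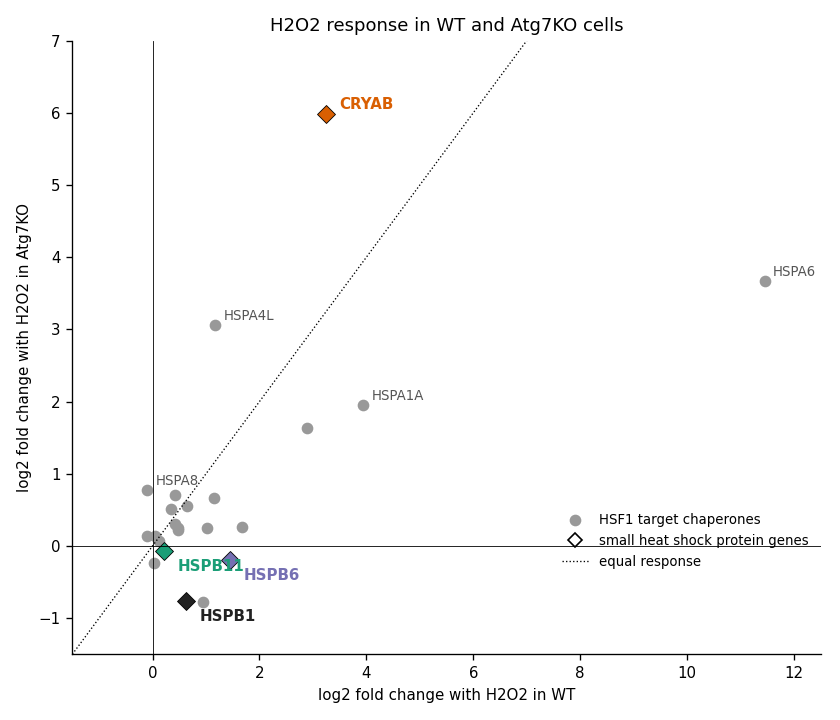
Log2 fold change with H2O2 in WT cells (x axis) and in Atg7KO cells (y axis) for 19 HSF1 target chaperones (grey circles) and the 4 tested members (diamonds); the dotted line marks equal responses. CRYAB lies above the line and HSPB1, HSPB6 and HSPB11 below it. On the y axis HSPB1 (-0.77), HSPB6 (-0.20) and HSPB11 (-0.07) lie below 0, as do some of the chaperones, and no test was made on the plot.

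With H2O2, 12 of the 19 HSF1 target chaperones were lower and 3 higher in Atg7KO than in WT cells, with a median of -0.20, and 6 had a lower and 2 a higher response in Atg7KO cells. Over all genes tested 27.9% were called as lower between the treated lines, and 7.01% had a lower response. HSPA6 and HSPA1A were at -5.24 and -2.26 in treated Atg7KO against WT cells (adjusted p = 4.76e-05 and 0.00116, edgeR). HSPB1, CRYAB and HSPB6 therefore had the direction of most of these chaperones between the treated lines, a direction called for 27.9% of all genes. Other comparisons differed. After H2O2 in Atg7KO cells HSPB1 had a value of -0.77, not called, where 9 chaperones were higher and 0 lower. The response of CRYAB was larger in Atg7KO cells by 2.74, not called, unlike most chaperones called there. HSF1 itself varied little, with group means from 19.4 to 24.6 FPKM. With H2O2 its log2 fold change was 0.18 in WT (adjusted p = 0.00176, edgeR) and 0.12 in Atg7KO cells (adjusted p = 0.273), and between treated Atg7KO and WT cells it was higher by 0.16 (adjusted p = 0.00208), the direction opposite to most of these chaperones. HSBP1, a small protein that binds heat shock factor trimers, was higher after H2O2 in WT cells (0.31, adjusted p = 1.13e-05) and lower in treated Atg7KO than in treated WT cells (-0.57, adjusted p = 1.17e-09).

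Among 12 partners and kinases of the small heat shock proteins, 5 were higher and 3 lower after H2O2 in WT cells, and 4 higher and 2 lower in Atg7KO cells. Over all genes 61.0% and 26.0% were called, so the share of this list in WT cells was near that of all genes. BAG3, the co-chaperone that joins HSPB8 and HSP70, rose from 34.4 to 76.8 FPKM in WT cells (log2 fold change 1.15, adjusted p = 9.33e-26, edgeR) and from 29.02 to 46.2 FPKM in Atg7KO cells (0.67, adjusted p = 0.00101). Its level in treated cells was lower in Atg7KO than in WT (-0.74, adjusted p = 5.81e-16), as was its response (-0.49, adjusted p = 0.00325). BAG1, another HSP70 co-chaperone, rose by 1.22 in WT cells (adjusted p = 2.49e-23). PRKD1, a kinase of small heat shock proteins, was lower after H2O2 in both lines (-1.21, adjusted p = 1.24e-11, and -0.94, adjusted p = 0.00108). PSIP1, a chromatin protein that protects lens epithelial cells from stress, was lower as well (-0.78, adjusted p = 2.00e-19, and -0.55, adjusted p = 0.00392). In treated cells 3 of the 12 were higher and 4 lower in Atg7KO than in WT, near the 55.6% called over all genes.

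The cytoskeletal proteins that alpha-crystallins are known to protect were mostly abundant. ACTG1, ACTB and TUBB had the highest levels, and 5 of the 6 tested genes of this list were lower in treated Atg7KO than in treated WT cells, with log2 fold changes from -0.64 for VIM, the intermediate filament of the lens epithelium, to -0.20 for ACTB. Over all genes tested there, 27.9% were called as lower. TUBB was the 1 gene of the list that passed the test after H2O2 in Atg7KO cells (-0.74, adjusted p = 0.00105, edgeR). ACTG1 (-0.43, adjusted p = 0.0130), TUBA1B (-0.41, adjusted p = 0.0217), ACTB (-0.39, adjusted p = 0.0326) and VIM (-0.54, adjusted p = 0.0562) had values of the same sign there and did not pass it. The other crystallins were nearly absent. Of 12 beta and gamma crystallin genes 5 (CRYBA4, CRYGA, CRYGB, CRYGC and CRYGD) were listed at 0 in all libraries, and only CRYGS could be tested. It went from 2.11 to 1.14 FPKM with H2O2 in WT cells (log2 fold change -0.90, adjusted p = 0.000138, edgeR) and from 1.74 to 0.945 FPKM in Atg7KO cells (-0.87, adjusted p = 0.0391). Thus CRYAB and CRYGS, the crystallins with enough reads, had opposite directions after H2O2 in WT cells.

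Markers of other cell types were set beside the rise of CRYAB. The summed FPKM of 8 lens fibre markers was between 0.332 and 0.535 in untreated and between 1.09 and 1.79 in treated WT libraries, and between 0.272 and 0.553 and between 0.703 and 1.09 in Atg7KO libraries, and LIM2 was at 0 throughout. The summed FPKM of 6 muscle markers, a tissue rich in CRYAB and HSPB6, was between 0.0600 and 0.111 in untreated and between 1.17 and 1.42 in treated WT libraries, and between 0.0732 and 0.171 and between 0.413 and 0.512 in Atg7KO libraries. Both sums thus moved with CRYAB at very low levels, and their part in its change was not tested. The sum of the 6 fibroblast markers, nearly all of it COL1A1, went the other way, between 623 and 655 FPKM in untreated and between 269.9 and 287 FPKM in treated WT libraries, and between 360.2 and 512 and between 247 and 257 FPKM in Atg7KO libraries. LUM was higher in Atg7KO than in WT cells, by 5.80 in log2 untreated (adjusted p = 6.71e-05, edgeR) and by 4.91 with H2O2 (adjusted p = 1.34e-17).

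Genes whose pattern over the 12 libraries was closest to a member were found by the root mean square difference of log2 CPM, centred on the mean of each gene, over 13306 genes with a mean FPKM above 1 in at least 1 group. For HSPB1 these were CD70 (0.105), TIMM13 (0.107) and TSPO (0.114). For HSPB11 they were COX5A (0.0599), CCT7 (0.0606) and TXNL4A (0.0677). For CRYAB they were FAM83H (0.355), ULBP1 (0.379) and ADAMTS1 (0.458). With 0 to 102 reads per library, the distances of CRYAB also hold its counting error and are not to be compared with those of the other members. These are descriptions over libraries that share their groups.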

How the data were processed

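The authors sequenced total RNA of HLE-B3 cells as 12 libraries (NEBNext Ultra kit). The deposited raw counts are whole reads per gene; the submitters' processing notes name HISAT2 2.0.5, featureCounts 1.5.0-p3 and GRCh38. The authors derived the deposited FPKM from these counts: each value equals count over length and total, times 1 factor per library between 0.949 and 1.02. Gene spans and exon lengths of the members equal those of GENCODE release 29.

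Groups were taken from the labels. Counts were fitted for all genes with edgeR 4.0.16 in R 4.3.3 (filterByExpr with a minimum count of 10, TMM, robust quasi-likelihood test), on the 6 libraries of each comparison and on all 12 for the interaction, with Benjamini-Hochberg adjustment over all genes tested, and called at 0.01. The stricter rule adds a log2 fold change beyond 1 and an FPKM above 1, as the study's methods do. The study used DESeq2, which is an alternative here (1.42.0). Other alternatives were RLE and upper quartile scaling, no filter, at least 10 counts in every library, all 12 libraries, the replicate number as a block, a gene length offset (lowess span 0.3), limma 3.58.1 on log2 of FPKM plus 1 or 0.1, and leaving out each library. Scripts were tested on simulated data. Counting intervals (exact, 95%) used scipy 1.17.1, and sequences were aligned with Biopython 1.88.

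All 9 members are named. Of each list, the 3 genes with the highest mean FPKM and the 2 highest and 2 lowest called fold changes with a mean FPKM above 1 could be named, and a subset of these is. The cell type markers and the beta and gamma crystallins printed by name beyond this rule were picked after their values were seen. Genes close to a member in pattern or sharing its reads are named as described. The members and the lists were chosen with earlier results of these data known. The summed FPKM of 5 retinal pigment epithelium markers was between 0.236 and 0.884 per library.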

Additional observations from a re-analysis of the deposited data

Results flagged for a closer look

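HSPB1 had a response to H2O2 that differed between the lines by a test of the difference itself: the log2 fold change was 0.63 in WT and -0.77 in Atg7KO cells, and the difference, Atg7KO minus WT, was -1.40 (SE 0.26, Benjamini-Hochberg adjusted p = 0.00212, edgeR). Over all 16856 genes tested 14.0% passed this test. All 3 treated WT libraries lay above all 3 untreated ones, and all 3 treated Atg7KO libraries lay below all 3 untreated ones. The share of all genes with such an order was not computed. Without untreated Atg7KO replicate 1, the difference was -1.05, and with the gene length correction it was -1.03.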

How the results depend on the processing

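Of 317 values of single members under other settings, 298 kept direction and side of the threshold, 9 lost the call, 5 gained it and 5 turned sign. The sign turned for CRYAB in the interaction with limma on FPKM plus 1 (-0.23), for HSPB11 with H2O2 in Atg7KO cells with the gene length correction (0.042) and without untreated Atg7KO replicate 1 (0.16, range -0.19 to 0.16 leaving out 1 library), and for HSPB6 without untreated Atg7KO replicate 3, in untreated cells (-0.029, range 0.56 to -0.029) and with H2O2 in Atg7KO cells (0.097, range -0.49 to 0.097). None of these 5 was called, and the cause was not tested.

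The number of members called with H2O2 in WT cells was 4 and became 2 with at least 10 counts in every library, which removes CRYAB and HSPB6, and 2 with all 12 libraries. In Atg7KO cells it was 1 and became 2 with DESeq2, 2 with all 12 libraries and 0 with at least 10 counts in every library, which removes CRYAB. In untreated cells it was 0 and became 1 with all 12 libraries. In the interaction it was 1 and became 2 without a filter. Leaving out 1 library gave between 1 and 2 members with H2O2 in Atg7KO cells, between 0 and 1 in untreated cells and between 1 and 2 in the interaction. HSPB11 with H2O2 in WT cells lost its call without a filter, with all 12 libraries and with the gene length correction (adjusted p = 0.0251, 0.237 and 0.0312), and HSPB1 with all 12 libraries (adjusted p = 0.0109). The gene length correction made the HSPB1 response smaller, at 0.43 in WT and -0.57 in Atg7KO cells.

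Same-numbered libraries of different groups had deviations from their group means that correlated between -0.069 and 0.098 over 18 pairs. These values show no large effect shared by number, and cannot tell whether such libraries were prepared together. The replicate block changed no call of a member: HSPB1 with H2O2 in Atg7KO cells was -0.71 (adjusted p = 0.0431, edgeR), and the members called were 4, 1, 0, 3 and 1 in the order of the report. It moved the count of all genes called in untreated cells from 1182 to 499.

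Counts of all genes called moved by more than 1.5 times in untreated cells (1182, against 2511 with DESeq2, 3154 with all 12 libraries, 1803 with the gene length correction and 287 to 5734 leaving out 1 library), with H2O2 in Atg7KO cells (4025, against 6528 with all 12 libraries and 1767 to 9341), between treated lines (8847, against 4876 with all 12 libraries) and in the interaction (2366, against 3703 with DESeq2, 4054 without a filter and 1332 to 5974). In 3 of these the highest count is that without untreated Atg7KO replicate 1. Depth limits CRYAA, HSPB2, HSPB3, HSPB7 and HSPB8, and CRYAB in untreated cells.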

Other observations

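HSPB9, a small heat shock protein gene known from testis and not among the 9 members, had 121 reads over the 12 libraries, between 2 and 19 per library, more than CRYAA, HSPB2, HSPB3, HSPB7 or HSPB8. It was picked after its values were seen.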
